A study of Mus musculus with 6 samples.

Results

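Histone variants are nonallelic forms of the linker and core histones, and many of them are made throughout the cell cycle. In all, 8 mouse genes for such variants were examined by symbol: *H1fx*, *H1f0*, *H2afx*, *H2afz*, *H2afv*, *H2afy*, *H3f3a*, and *H3f3b*. The table of 39179 Ensembl identifiers held a value for 7 of the 8 genes, and *H1f0* was not analyzed here because the identifier that carries its name in the annotation had no match in the table. RNA-Seq covered 3 replicates per population, with 5 mice pooled for each replicate. GC B cells were sorted as Fas+GL7+ and naive (resting) B cells as Fas-GL7- from Peyer's patches, which are gut-associated lymphoid tissue of the ileum. Mice of both populations were WT C57BL/6 females aged 12 weeks, with no transgene, deletion or treatment named in either population. Since *Fas* was a sorting marker, its difference between the populations is no finding.

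Nucleosomes wrap DNA around an octamer of core histones, and linker histones bind where DNA enters and leaves that particle. Most histones are produced in S phase from clustered genes, whereas many variants are supplied outside S phase as well and are placed by dedicated chaperones and remodelers. GC B cells are activated B cells that divide rapidly and mutate their antibody genes through DNA lesions, and naive B cells are largely out of cycle. *H1fx* encodes the linker histone H1.X. *H2afx* encodes H2A.X, whose tail is phosphorylated around DNA double-strand breaks. *H2afz* and *H2afv* encode the closely similar H2A.Z isoforms, found beside gene starts. *H2afy* encodes macroH2A1, which carries a large extra domain and is associated with silent chromatin, and *H3f3a* and *H3f3b* encode the same H3.3 protein.

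Expression is given as TPM (transcripts relative to a fixed total of 1000000 per pool), obtained from the deposited FPKM values. TPM is a level per transcript length, so it can be compared between genes, and it is relative to all other RNA of the same pool. Depth was estimated at 9700000 to 16150000 reads per pool from the steps between low FPKM values, although only 72.7% to 78.0% of those low values lay within 0.15 of a whole read. GC B cell markers summed to 1410 to 1438 TPM in GC pools and to 51.6 to 57.5 TPM in naive pools, and all 6 were higher in GC B cells, 3 of them having passed the filter on low values through the GC pools alone. All 4 naive B cell markers with a value were lower in GC B cells, with sums of 143 to 158 TPM against 1212 to 1298 TPM. T cell markers reached at most 1.83 TPM in any pool, and myeloid markers summed to 13.9 to 15.8 TPM in GC pools and to 8.74 to 14.1 TPM in naive pools, with *Cd68* higher in GC pools (mean 13.1 against 5.88 TPM) and *Lyz2*, *Itgam*, and *Adgre1* with lower means there. Intestinal epithelial markers summed to 141.9 to 174.9 TPM in naive pools, and to 130.3 TPM in GC replicate 2 against 53.1 and 56.5 TPM in the other GC pools. *Fabp2* was the largest part of that sum in every pool (mean 36.8 TPM in GC against 73.0 TPM in naive pools). *Krt18* alone among them had a higher mean in GC pools (3.23 against 1.83 TPM). Plasma cell markers summed to 27.5 to 29.2 TPM in GC pools and to 73.8 to 84.1 TPM in naive pools, a sum made mostly of *Irf4* (mean 21.7 against 76.4 TPM), whereas *Prdm1* was higher in GC pools (mean 5.01 against 0.955 TPM). The part of these other cell types in the differences was not tested. In such bulk samples, fewer cells of a type and less RNA per cell cannot be told apart.

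The populations were compared with limma on log2(TPM + 1), and a gene was called at a Benjamini-Hochberg adjusted p under 0.05 over the 12785 genes that reached at least 1 TPM in at least 3 pools. Of the 7 histone variants with a value, 5 were higher in GC B cells, 0 were lower, and 2 did not pass. In the same fit 65.6% of all tested genes were called, with 35.5% higher and 30.1% lower in GC B cells. That balance depended on the scaling, since 4080 genes were higher and 4450 lower after quantile normalization. A call alone was therefore common, and the size of the change set the variants apart from each other. *H1fx*, *H2afx*, *H2afz*, and *H2afv* each rose by at least 2 on the log2 scale, a change that 5.51% of tested genes showed in that direction. *H2afy*, *H3f3a*, and *H3f3b* stayed within 0.18 on the log2 scale between populations. All 7 genes passed the filter on low values, but *H1fx* passed it through the GC pools alone, with 0 naive pools at 1 TPM or more, so that it had to differ. Pool order gave a similar background, as 70.7% of tested genes had populations that did not overlap (37.8% with all GC pools above and 32.8% with all GC pools below the naive pools). Among the 7 variants the populations of 6 did not overlap, 5 with GC above and 1 below. The 5 variants called higher and the 5 with GC above both include *H1fx*.

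**Figure D1:**
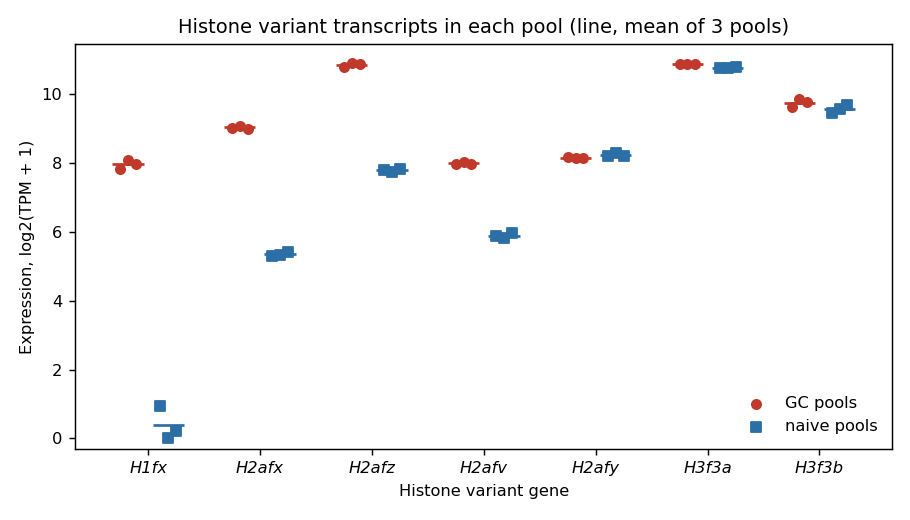
Expression of the 7 histone variant genes as log2(TPM + 1) in each of the 3 GC pools (circles) and 3 naive pools (squares), with lines at the mean of 3 pools. *H1fx*, *H2afx*, *H2afz*, and *H2afv* lie far apart between populations, whereas the pools of *H2afy*, *H3f3a*, and *H3f3b* lie close together.

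*H1fx* (ENSMUSG00000044927, RefSeq symbol *H1f10*) is a single-exon gene on chromosome 6, at chr6:87980421-87981482 in GRCm38.p6. The 250 bases before its start, at chr6:87981483-87981732 on the minus strand, have a G+C content of 75.2%, against a median of 52.4% over 32851 RefSeq promoters of that length. That content is not particular to *H1fx*, as the windows of *H3f3a*, *H2afy*, and *H2afz* have 77.2%, 74.8%, and 71.2%. Those of *H2afv* and *H3f3b* have 57.2% and 54.0%. The *H1fx* promoter is shown with those of *H2afz*, which also rose in GC B cells, and of *H3f3a*, which moved little. A shorter stretch of *H2afv* is shown because it holds a pair of different motifs. Capitals mark matches to motifs searched on both strands. One is CCAAT, which reads ATTGG on the other strand. Another is the cell cycle homology motif, written TTTGAA or TTCGAA, and its match in *H2afv* lies on the other strand, where TTTGAA reads TTCAAA. Windows run 5′ to 3′ along the gene and end at the base before the start. The window of *H2afz* lies at chr3:137864237-137864486 on the plus strand, that of *H3f3a* at chr1:180813606-180813855 on the minus strand, and the stretch of *H2afv* at chr11:6444473-6444502 on the minus strand.
H1fx: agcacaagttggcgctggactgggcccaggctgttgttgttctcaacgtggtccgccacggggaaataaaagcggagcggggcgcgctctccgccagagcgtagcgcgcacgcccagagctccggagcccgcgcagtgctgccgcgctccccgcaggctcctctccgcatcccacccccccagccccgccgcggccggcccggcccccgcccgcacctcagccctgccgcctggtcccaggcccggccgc
H2afz: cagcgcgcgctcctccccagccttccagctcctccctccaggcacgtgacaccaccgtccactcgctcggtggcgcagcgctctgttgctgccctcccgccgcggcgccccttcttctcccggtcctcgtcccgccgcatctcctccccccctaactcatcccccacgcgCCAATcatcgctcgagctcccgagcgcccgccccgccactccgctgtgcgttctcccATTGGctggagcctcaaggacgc
H3f3a: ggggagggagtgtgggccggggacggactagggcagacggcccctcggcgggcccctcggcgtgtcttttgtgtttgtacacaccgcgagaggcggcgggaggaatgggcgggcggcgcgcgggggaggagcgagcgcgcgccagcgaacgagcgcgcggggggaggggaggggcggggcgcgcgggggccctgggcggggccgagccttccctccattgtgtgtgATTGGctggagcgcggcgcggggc
H2afv: ATTGGccggccgccgaggTTCAAAcgaaca

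CCAAT was present in 33.8% of all 32851 promoters and the cell cycle homology motif in 17.1%. The *H2afz* window held 2 CCAAT motifs, from -80 to -76 and from -23 to -19 relative to the start. The *H2afv* window held 4 CCAAT motifs and 1 cell cycle homology motif, the latter from -41 to -36. The *H3f3a* window held 1 CCAAT motif, from -24 to -20, and that of *H3f3b* held 4, together with 1 TATAAA from -27 to -22, a motif found in 12.4% of promoters. None of the 4 motifs searched was found in the windows of *H1fx* and *H2afy*. The fourth motif, the E2F site written as TTTCCCGC, TTTCGCGC, TTTGCCGC or TTTGGCGC on either strand, was present in 1.86% of promoters and in no window of these genes. Copies of CCAAT thus occurred both in genes that rose and in genes that moved little. The windows of *H2afv*, *H2afy*, and *H3f3b* overlap the annotated span of their own gene by 68, 76, and 250 bases, because the start used in RefSeq's table lies inside that span. The printed stretch of *H2afv*, with both of its motifs, lies wholly within the overlapping part. These matches describe letters in a window and say nothing of binding.

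*H1fx* was among the better expressed genes of GC B cells and close to the limit of detection in naive B cells. It was measured at 228.8, 270.5, and 249.3 TPM in GC replicates 1, 2, and 3, a mean of 249.5 ± 20.8 TPM (SD, n = 3). In naive replicates 1, 2, and 3 it was listed at 0.905, 0, and 0.155 TPM. The lowest GC pool thus exceeded the highest naive pool by 253-fold, and the populations did not overlap. At the estimated depths the naive values correspond to about 7.0, 0, and 1.0 reads, and the GC values to about 1618, 1723, and 1586 reads. The gene ranked between 504 and 612 among all genes in the GC pools and between 12393 and 17161 in the naive pools. The fitted log2 fold change was 7.59 with an SE of 0.239 (limma adjusted p = 1.06e-06), and its 95% interval ran from 7.01 to 8.16. Because *H1fx* passed the filter on low values through the GC pools alone, its call and the lack of overlap carry no weight as tests. The size of the fold change depended on the pseudocount, because the naive values lie below 1 TPM. With a pseudocount of 0.1 TPM the log2 fold change of *H1fx* was 9.72, and with 0.01 TPM it was 11.08. The *H1fx* GC pools also varied more than those of most well expressed genes, with a coefficient of variation of 8.35% against a median of 3.68% over the 1653 genes at 100 TPM or more.

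*H2afx* (ENSMUSG00000049932, RefSeq symbol *H2ax*) is likewise a single-exon gene, on chromosome 9 at chr9:44334715-44336077. Its values were 523.7, 539.9, and 510.7 TPM in the GC pools (524.8 ± 14.6, SD, n = 3). In the naive pools it was measured at 38.9, 39.2, and 41.8 TPM (39.9 ± 1.60, SD, n = 3). Every GC pool was therefore far above every naive pool, and *H2afx* differed from *H1fx* in being clearly detected in resting cells. The mean was 13.1-fold higher in GC B cells, and the log2 fold change was 3.68 with an SE of 0.0474 (limma adjusted p = 8.57e-08). The gene moved from a rank of 3502 to 3940 in naive pools to a rank of 254 to 269 in GC pools.

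*H2afz* (ENSMUSG00000037894, RefSeq symbol *H2az1*, chr3:137864487-137866922) was the most abundant of the H2A variants in GC B cells. GC replicates 1, 2, and 3 held 1793, 1934, and 1869 TPM (1865 ± 70.6, SD, n = 3), and naive replicates held 222.6, 214.8, and 225.5 TPM (221 ± 5.56, SD, n = 3). The populations did not overlap, and the mean was 8.44-fold higher in GC B cells, with a log2 fold change of 3.07 and an SE of 0.0427 (limma adjusted p = 1.13e-07). *H2afv* (ENSMUSG00000041126, RefSeq symbol *H2az2*, chr11:6427226-6444511) was measured at 249.3, 263.4, and 252.1 TPM in GC pools (255 ± 7.49, SD, n = 3). Its naive values were 57.7, 56.0, and 61.3 TPM (58.3 ± 2.71, SD, n = 3). Its GC values were likewise all above the naive ones, with a 4.37-fold difference of means and a log2 fold change of 2.11 with an SE of 0.0510 (limma adjusted p = 3.89e-07). Both genes for H2A.Z thus rose, and *H2afz* rose more. Together they came to 2120 ± 77.6 TPM in GC pools and to 279 ± 8.06 TPM in naive pools, a 7.59-fold difference.

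The share of H2A.Z transcripts contributed by *H2afv* was lower in GC pools. It was 12.2%, 12.0%, and 11.9% in GC pools (12.0% ± 0.164, SD, n = 3) and 20.6%, 20.7%, and 21.4% in naive pools (20.9% ± 0.436, SD, n = 3). The GC shares all lay below the naive shares, with a mean difference of -8.85 percentage points (two-sided exact permutation p = 0.1, the smallest that 3 against 3 pools allow, and 0.15 adjusted over the 3 shares tested).

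*H2afy* (ENSMUSG00000015937, RefSeq symbol *Macroh2a1*, chr13:56073622-56135626) was the H2A variant whose level moved least. It was measured at 287.0, 283.8, and 285.4 TPM in GC pools (285.4 ± 1.61, SD, n = 3) and at 295.3, 313.1, and 292.8 TPM in naive pools (300.4 ± 11.03, SD, n = 3). All GC values lay just below all naive values, but the log2 fold change of -0.07 with an SE of 0.0403 did not pass (limma adjusted p = 0.156), and its 95% interval ran from -0.17 to 0.02. *H2afy* did pass as lower in GC B cells under other scalings, with a log2 fold change of -0.12 on deposited FPKM (limma adjusted p = 0.0225) and -0.15 after quantile normalization (limma adjusted p = 0.00964). Relative to the median of all tested genes, however, *H2afy* stood at -0.10 in the main fit, -0.11 on deposited FPKM, and -0.09 after quantile normalization.

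The 4 H2A variants among the listed genes were also described by their make-up, the share of each gene in their summed TPM. *H2afj*, another H2A variant described below, was not part of this sum. Its mean was 46.0 TPM in GC pools and 73.3 TPM in naive pools, the latter above the naive means of *H2afv* and *H2afx*. The 4 genes summed to 2930 ± 84.8 TPM in GC pools and to 619.7 ± 4.56 TPM in naive pools (SD, n = 3). *H2afy* was the largest contributor in naive B cells, with 48.5% ± 1.60 of the sum against 9.75% ± 0.335 in GC B cells. *H2afz* held 63.6% ± 0.691 in GC B cells and 35.7% ± 1.03 in naive B cells. *H2afx* made up 18.4%, 17.9%, and 17.5% in GC pools and 6.32%, 6.29%, and 6.72% in naive pools. Its share was higher in all GC pools, by 11.5 percentage points (two-sided exact permutation p = 0.1, adjusted 0.15, again the smallest possible). *H2afv* rose in level but held 8.70% ± 0.0512 in GC B cells and 9.41% ± 0.438 in naive B cells, with every GC pool below every naive pool.

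**Figure D2:**
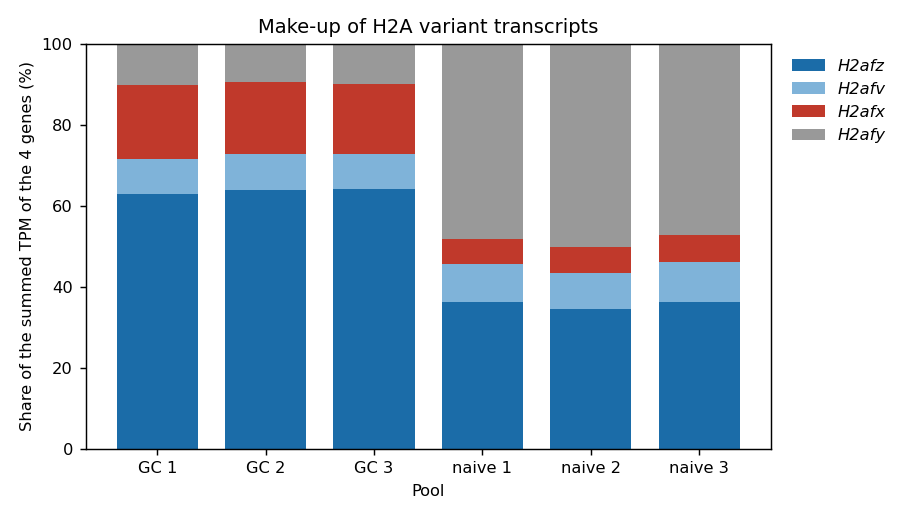
Share of each of *H2afz*, *H2afv*, *H2afx*, and *H2afy* in their summed TPM (%), as 1 stacked bar for each of the 3 GC and 3 naive pools. *H2afy* (gray) takes 48.5% on average in naive pools and 9.75% in GC pools, and *H2afz* and *H2afx* take larger shares in GC pools.

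The genes for H3.3 were highly expressed in both populations and moved little. *H3f3a* (ENSMUSG00000060743, chr1:180802560-180813605) was measured at 1887, 1870, and 1870 TPM in GC pools (1875 ± 9.66, SD, n = 3) and at 1748, 1724, and 1762 TPM in naive pools (1745 ± 19.4, SD, n = 3). The GC values all lay above the naive values, by a factor of 1.08 between means, and *H3f3a* passed as higher with a log2 fold change of 0.10 and an SE of 0.0308 (limma adjusted p = 0.0229). That call was lost when GC replicate 1, 2 or 3 or naive replicate 1 was left out (limma adjusted p = 0.0839, 0.0636, 0.0633, and 0.0753), and also with the replicate number as a block (limma adjusted p = 0.108). With a correction for G+C content and transcript length, chosen after seeing the data, the log2 fold change of *H3f3a* was -0.13 (limma adjusted p = 0.0254). This correction shifted the median of all genes by -0.12, and relative to that median *H3f3a* stood at -0.05, so that its direction depended on the processing.

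*H3f3b* (ENSMUSG00000016559, chr11:116021961-116026039) was measured at 796.5, 926.8, and 871.9 TPM in GC pools (865 ± 65.4, SD, n = 3) and at 701.3, 763.3, and 824.1 TPM in naive pools (763 ± 61.4, SD, n = 3). The populations overlapped, since naive replicate 3 exceeded GC replicate 1. The log2 fold change of *H3f3b* was 0.18 with an SE of 0.0793 and a 95% interval from -0.01 to 0.37, and it did not pass (limma adjusted p = 0.0858). It passed without GC replicate 1 (limma adjusted p = 0.0461), without naive replicate 3 (limma adjusted p = 0.0440) and with the replicate number as a block (limma adjusted p = 0.0479). After the correction for G+C content and length it was -0.068 (limma adjusted p = 0.484), which is 0.01 relative to the shifted median.

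*H3f3b* supplied 29.7%, 33.1%, and 31.8% of H3.3 transcripts in GC pools and 28.6%, 30.7%, and 31.9% in naive pools. These shares overlapped, with a mean difference of 1.15 percentage points (two-sided exact permutation p = 0.5, also after adjustment), and the mean difference was -2.41 points after quantile normalization (exact permutation p = 0.3). H3.3 transcripts from both genes summed to 2740 ± 56.8 TPM in GC B cells and to 2507 ± 71.0 TPM in naive B cells. Reads of both genes can also be divided with intronless copies. The copy named *H3f3a-ps1* reached 0.568 TPM in GC replicate 2 and 0.862 TPM in naive replicate 2, and *H3f3a-ps2* was listed at 0 in every pool. *H3f3c* was listed at 0 in 5 pools and at 16.2 TPM in naive replicate 3.

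**Figure D3:**
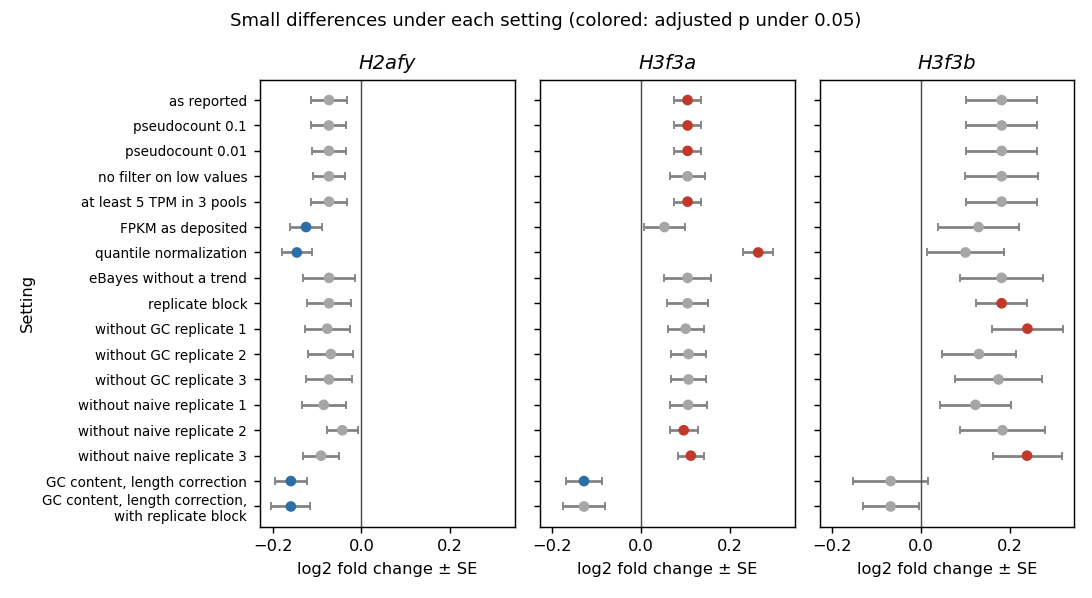
Log2 fold change between GC and naive B cells (± SE, limma) of *H2afy*, *H3f3a*, and *H3f3b* under each processing setting, with colored points at an adjusted p under 0.05 (red, higher in GC; blue, lower). *H3f3a* runs from -0.13 to 0.26, and the point of each of the 3 genes lies on either side of the threshold depending on the setting.

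Within each population the genes fell into a clear order of level. In GC B cells *H3f3a* and *H2afz* led with overlapping pool values, followed by *H3f3b*, *H2afx*, and *H2afy*, and then by *H2afv* and *H1fx*, which again overlapped. In naive B cells the order was *H3f3a*, *H3f3b*, *H2afy*, *H2afz*, *H2afv*, *H2afx*, and *H1fx*, and no neighbors in that order overlapped. *H2afx* therefore stood below *H2afy* in every naive pool and above it in every GC pool. The 7 genes together came to 5920 ± 162 TPM in GC B cells and 3127 ± 73.5 TPM in naive B cells, a ratio of 1.89.

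The genes also differed in how closely pools of 1 population resembled each other. *H3f3a* had a coefficient of variation of 0.515% among GC pools and 1.11% among naive pools, and only 1.57% of genes at 100 TPM or more varied less among GC pools. *H2afy* was similarly even among GC pools, at 0.563%. *H3f3b*, which encodes the same protein as *H3f3a*, varied by 7.56% and 8.05%. GC replicate 2 held the highest GC value of 5 of the 7 genes, and it was also the GC pool with the largest sum of epithelial markers. Naive replicate 3 held the highest naive value of 5 of the 7 genes, but its sum of epithelial markers was the smallest among naive pools (141.9 TPM). How often these pools were highest over all tested genes was not computed. Without GC replicate 2, the log2 fold changes were 7.53 for *H1fx*, 3.66 for *H2afx*, 3.04 for *H2afz*, and 2.09 for *H2afv*, so these 4 genes changed about as much as with it.

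**Figure D4:**
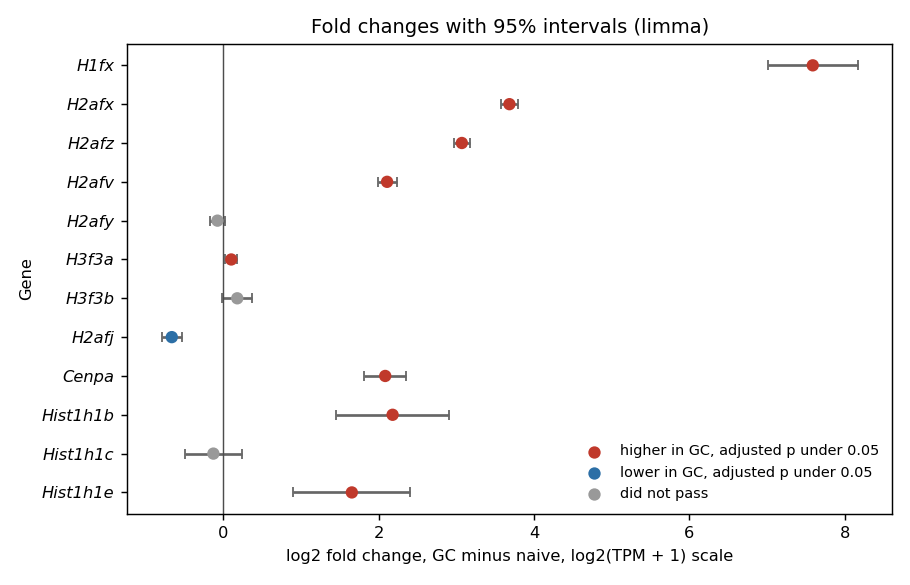
Log2 fold change (GC minus naive, log2(TPM + 1) scale) with 95% intervals from limma for the 7 genes and for *H2afj*, *Cenpa*, *Hist1h1b*, *Hist1h1c*, and *Hist1h1e*, colored by call. *H1fx* stands at 7.59, and *H2afj* is lower in GC B cells at -0.66.

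Other histone variants from a list of 8 were mostly at or near 0 in both populations. *Cenpa*, the H3 variant that marks centromeres, was measured at 139.8, 159.4, and 148.7 TPM in GC pools and at 38.3, 36.3, and 29.1 TPM in naive pools. It was higher in every GC pool, with a log2 fold change of 2.09 and an SE of 0.111 (limma adjusted p = 9.86e-06). *H2afj*, an H2A variant close to canonical H2A, was lower in every GC pool, at 45.9, 46.0, and 46.1 TPM against 75.1, 69.4, and 75.5 TPM in naive pools (log2 fold change -0.66, SE 0.0526, limma adjusted p = 6.34e-05). *H2afj* was thus an H2A variant that fell, in contrast to *H2afx* and both H2A.Z genes. *H2afy2*, for macroH2A2, did not exceed 0.179 TPM, and *H2afb1*, *H1foo*, *H1fnt*, and *Hils1* were listed at 0 in every pool. Among loading factors of CENP-A, *Oip5* rose by 3.65, *Hjurp* by 2.48, and *Mis18a* by 0.60 on the log2 scale (limma adjusted p up to 0.00141), and *Oip5* passed the filter through the GC pools alone, so that it had to differ.

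Replication-dependent linker histones, whose mRNAs mostly end in a stem-loop in place of a poly(A) tail, were measured at low levels. None of the 6 exceeded 12.8 TPM in any pool, compared with 228.8 TPM or more for *H1fx* in GC pools. *Hist1h1b* was higher in GC B cells, at 4.67, 7.56, and 5.69 TPM against 0, 1.05, and 0.697 TPM (log2 fold change 2.18, SE 0.302, limma adjusted p = 0.000839). *Hist1h1e* was also higher, at 8.83, 8.14, and 9.69 TPM against 1.16, 4.11, and 1.78 TPM (log2 fold change 1.66, SE 0.311, limma adjusted p = 0.00345). *Hist1h1c* did not pass, with a log2 fold change of -0.13 and overlapping pools (limma adjusted p = 0.497). *Hist1h1a*, *Hist1h1d*, and *Hist1h1t* were below the filter on low values. Whether the libraries were selected for poly(A) RNA is not given in the sources used here, and its part in these low values was not tested.

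Factors that exchange H2A.Z were divided. Of 19 tested genes of the SRCAP, p400/TIP60, and INO80 complexes and *Anp32e*, 9 were higher in GC B cells, 2 were lower, and 8 did not pass, so that 57.9% were called against 65.6% of all tested genes, with a median log2 fold change of 0.26 beside 0.03 over all tested genes. *Anp32e*, a chaperone that removes H2A.Z from chromatin, rose most, from 149.2, 156.0, and 136.3 TPM in naive pools to 536.7, 601.0, and 579.8 TPM in GC pools (log2 fold change 1.95, SE 0.0674, limma adjusted p = 1.52e-06). *Ruvbl2*, an ATPase shared by these complexes, rose by 1.23 on the log2 scale (SE 0.0498, limma adjusted p = 3.02e-06). The lower genes were *Epc2*, at -0.26 (limma adjusted p = 0.0429), and *Mrgbp*, at -0.22 (limma adjusted p = 0.0249), both subunits of the TIP60 complex. *Epc2* lost its call when GC replicate 2 or 3 or any naive pool was left out (limma adjusted p from 0.0566 to 0.122), and *Mrgbp* when GC replicate 1 or 2 or naive replicate 2 was (limma adjusted p from 0.0519 to 0.0809).

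Chaperones of H3.3 were divided as well. Of 8 tested, 4 were higher, 0 were lower, and 4 did not pass (50% called, against 65.6% of all tested genes), with a median log2 fold change of 0.32. *Dek*, a chromatin protein that binds H3.3, rose by 1.78, *Asf1a*, a carrier of H3-H4, by 1.60, *Hira*, the core of the complex that places H3.3 in active genes, by 1.18, and its partner *Ubn1* by 0.41 on the log2 scale (limma adjusted p up to 0.00796). *Daxx* and *Atrx*, which place H3.3 at repeats and telomeres, had log2 fold changes of 0.03 and 0.16 and did not pass, nor did *Cabin1* at 0.23 and *Ubn2* at -0.15 (limma adjusted p from 0.0612 to 0.775). *Cabin1* and *Ubn2* belong to the same HIRA complex as *Ubn1*. By comparison, all 13 replication-coupled histone chaperones were higher in GC B cells, with a median of 1.62, led by *Asf1b* at 4.51 and *Chaf1a*, the large subunit of CAF-1, at 4.40 (limma adjusted p = 1.97e-06 and 3.71e-07).

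Enzymes and readers of phosphorylated H2A.X changed far less than *H2afx* itself. Of 12 tested genes, 7 were higher, 1 was lower, and 4 did not pass (66.7% called, close to the 65.6% of all tested genes), with a median log2 fold change of 0.38. *Baz1b*, the kinase that phosphorylates the last tyrosine of H2A.X, rose from 56.7, 61.0, and 52.9 TPM in naive pools to 95.9, 103.1, and 107.4 TPM in GC pools (log2 fold change 0.83, SE 0.0720, limma adjusted p = 9.14e-05). The phosphatase *Ppm1d* rose by 0.83 (SE 0.0952, limma adjusted p = 0.000355). *Atr*, a kinase of the damage response, was lower, at 5.51, 5.92, and 5.63 TPM in GC pools against 10.1, 9.95, and 8.06 TPM in naive pools (log2 fold change -0.63, limma adjusted p = 0.00290). *Atm*, chosen for mention after its values were seen because it is the classic H2A.X kinase, had overlapping pools and a log2 fold change of -0.13 (limma adjusted p = 0.659).

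**Figure D5:**
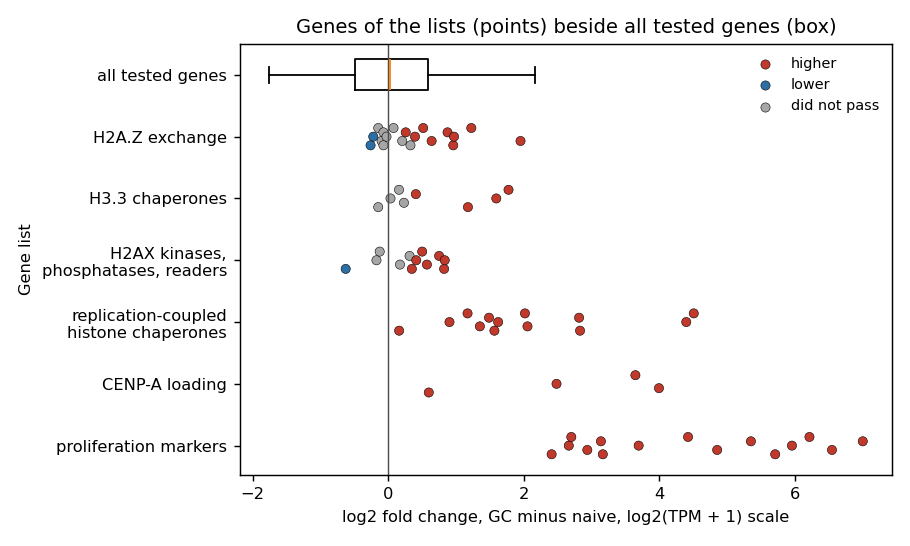
Log2 fold change (GC minus naive) of each tested gene in 6 lists, colored by call at a limma adjusted p under 0.05, beside a box of all tested genes (median 0.03, quartiles -0.49 and 0.59, whiskers at the 5th and 95th percentiles, -1.76 and 2.17). Proliferation markers and CENP-A loading factors lie far to the right, and the exchange and H3.3 chaperone lists straddle 0.

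Proliferation markers differed between the populations together with *H1fx*, *H2afx*, *H2afz*, and *H2afv*. All 15 were higher in GC B cells, whereas 35.5% of all tested genes were called higher. Their median log2 fold change was 4.43, beside 0.03 over all tested genes. They summed to 3606 to 3713 TPM in GC pools and to 307.0 to 319.2 TPM in naive pools. *Mki67*, the marker of cycling cells, rose by 7.01 and *Cdk1*, the mitotic kinase, by 6.55 on the log2 scale, but both passed the filter on low values through the GC pools alone, so that they had to differ. Cell division and GC identity cannot be told apart in these pools, and the part of proliferation in the rise of the histone variants was not tested.

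Over the 6 pools, the genes whose pattern lay closest to *H1fx* were *Gm600*, *S1pr2*, and *SNORA42*, at Euclidean distances of 0.666, 0.666, and 0.747 between centered log2(TPM + 1) values. *S1pr2*, the sphingosine phosphate receptor that holds GC B cells in the follicle, had 261.4 to 272.4 TPM in GC pools and 0.671 to 0.999 TPM in naive pools. *Gm600* had 209.9 to 219.3 TPM in GC pools and 0.258 to 0.405 TPM in naive pools, and *SNORA42*, a small nucleolar RNA, was listed at 0 in the naive pools. Like *H1fx*, each of these genes lay below 1 TPM in every naive pool. They thus passed the filter on low values through the GC pools alone and had to differ. The genes closest to *H2afx* were *Hmgn3*, a nucleosome binding protein, *Dck*, deoxycytidine kinase, and *Lmnb1*, for lamin B1, at distances of 0.0913, 0.132, and 0.144. Their log2 fold changes were 3.72, 3.74, and 3.62, beside 3.68 for *H2afx*. The distances rest on 6 pools from 2 populations and carry no test.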

How the data were processed

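RNA-Seq was performed on 3 pools of GC and 3 pools of naive B cells, from 100 ng of total RNA per sample with the NEBNext Ultra kit. Per the labels and the study's methods, reads were processed with CASAVA 1.8, FastQC, cutadapt 1.9, and RSEM 1.2.25 on the mouse transcriptome NCBIm38 v75, with a mean fragment length of 180 and SD of 50, and edgeR is also named. The authors deposited FPKM per gene and pool, with 2 decimals, so that no count test could be applied. RSEM divides reads between near-identical genes, which makes the values of *H3f3a*, *H3f3b*, and their copies less certain.

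The deposited FPKM values were rescaled to TPM so that each pool sums to 1000000. Symbols came from GENCODE vM1 for 33398 of 39179 identifiers, and coordinates and promoters from RefSeq on GRCm38.p6, which listed promoters for 7 of the 8 genes (none for *H2afx*). *H1f0*, and with it a planned share of *H1fx* among both linker genes, was not analyzed here. *Srcap* matched more than 1 identifier and *Ighd* none, and both were left out. GC and naive B cells were compared in limma 3.58.1 (R 4.3.3, lmFit, eBayes with a trend) on log2(TPM + 1). Genes that reached 1 TPM or more in 3 or more pools were tested, with Benjamini-Hochberg adjustment over 12785 genes. A fold change on this scale understates that of low genes. The fit was also run on simulated data with 200 of 12785 genes changed by 1 on the log2 scale. It recovered 69.5% of them with 8 false calls, and made 0 calls in simulated data without change. In the real data 65.6% of genes were called, a far larger share, and the error rate at such a share was not tested. Shares were compared with two-sided exact permutation tests, whose smallest p is 0.1. Other steps ran in Python 3.11.15 with pandas 2.3.3 and numpy 2.4.6, permutation tests in scipy 1.17.1, and plots in matplotlib 3.10.9.

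The 8 genes, the related lists, and the tests were chosen with earlier results of these data known. The genes named are the 8 variants, in each related list the 2 called genes with the largest change in each direction (every gene of a list of up to 8), and the 3 genes closest to *H1fx* and to *H2afx*. One gene named by this rule is not reported here. The promoter motifs and the correction for G+C content and length (cubic terms per pool, possible for 11031 genes) were added after seeing the data. Alternatives covered the pseudocount, the filter, the scaling, the variance model, a replicate block, and omission of single pools. Pools of both populations carry numbers 1 to 3, but no source says that equal numbers mark the same mice. The limma p-values set each difference against the spread between these pools, moderated over all tested genes. The permutation p-values rest on reassigning these pools to the populations. Depth was estimated from FPKM steps of single-transcript genes and is approximate, so no counting intervals are given.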

Additional observations from a re-analysis of the deposited data

How the results depend on the processing

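Each of the 7 fold changes was recomputed under 16 alternatives, and 93 of the 112 values kept their direction and their side of the threshold. *H2afx*, *H2afz*, and *H2afv* passed as higher in GC B cells in all of them, with log2 fold changes of 3.55 to 3.72, 2.81 to 3.11, and 1.85 to 2.15. *H1fx*, which had to differ, ran from 6.99 to 11.08. The shares could not reach a p under 0.05 under any alternative. The number of histone variants called ran from 4 to 6 of the 7. Over all genes the count ran from 7180 of 10277 tested (at least 5 TPM in 3 pools) to 8639 of 20845 tested (no filter on low values). After the correction for G+C content and length, 3729 genes were higher and 4297 lower, of 11031 tested. *H2afy* passed as lower in 4 alternatives, *H3f3a* was not called higher in 10, and *H3f3b* passed as higher in 3. With the correction for G+C content and length, the log2 fold change was -0.13 for *H3f3a* (limma adjusted p = 0.0254) and -0.068 for *H3f3b* (limma adjusted p = 0.484), and with the replicate block added these were again -0.13 (0.0595) and -0.068 (0.368). The *H3f3b* share of H3.3 transcripts differed by -2.41 percentage points after quantile normalization. The cause of these reversals was not tested.

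Same-numbered GC and naive pools deviated together only weakly, with correlations of 0.0830, 0.0225, and 0.0456, although each GC pool correlated best with its own number. With the replicate number as a block, 7960 genes were called, of which 7795 were among the 8392 called without it, and 5 histone variants were called, with *H3f3b* in place of *H3f3a*. Naive values of *H1fx* rest on about 7 reads or fewer per pool, so the size of its change is limited by depth.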
